A study of Mus musculus with 20 samples.

Results

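The metallothioneins Mt1 and Mt2, the zinc-sensing transcription factor Mtf1 and the zinc transporters Slc30a1, Slc39a14 and Slc39a8 were analysed in mouse granulosa cells (GCs), 6 of the 55487 gene identifiers counted in the series. The genes were chosen by symbol, and Mt1 and Mt2 were picked because they differed between lines and stages in these same samples. All line and stage values of Mt1 and Mt2 are therefore descriptions without a test. The other 4 genes were not picked for such effects, but they were listed with earlier results of these data known. The samples were 20 libraries, 1 per mouse, with 5 mice in each of 4 groups. Ctrl mice came from an outbred line kept without selection under rotational mating. FL1 mice came from a Dummerstorf line selected over many generations for large litters. Both lines go back to the same founder population and were sampled in the natural cycle. Mice of both lines were 77 ± 5 days old and were sampled in estrus, when the vaginal smear held cornified cells alone, or in diestrus, when it held leucocytes alone. From each mouse 7 to 10 of the largest follicles were opened and the mural GCs were taken without the oocyte and its cumulus cells, so each library pooled the GCs of several follicles.

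Metallothioneins are small cysteine-rich proteins of the cytosol that bind zinc and copper, buffer free zinc and take up oxidants. MTF1 senses zinc through its zinc fingers, enters the nucleus when free zinc rises and switches on Mt1, Mt2 and Slc30a1 through short metal response elements in their promoters. Transporters of the Slc30 family (ZnT) move zinc out of the cytosol, and those of the Slc39 family (ZIP) move it in. Metallothionein genes also respond to glucocorticoids and to cytokines such as IL-6. In the ovary zinc is needed for meiotic arrest and maturation of the oocyte, which GCs surround and supply.

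The promoters of the genes that carry most of the values below are shown because the metal response element is the known input of MTF1. The element was searched as TGCACNC or TGCGCNC on both strands of the RefSeq window from 250 bases before to 50 bases after each start site (GRCm38.p6), and matches are in capitals. Only bases before the transcribed part are printed, on the plus strand, which is the coding strand of all 3 genes.
Mt1 (chr8:94178839-94179081): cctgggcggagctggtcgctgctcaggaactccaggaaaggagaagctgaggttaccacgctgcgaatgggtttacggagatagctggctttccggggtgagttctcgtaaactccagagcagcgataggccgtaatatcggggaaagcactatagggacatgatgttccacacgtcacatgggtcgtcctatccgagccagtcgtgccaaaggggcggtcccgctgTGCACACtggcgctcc
Mt2 (chr8:94172368-94172617): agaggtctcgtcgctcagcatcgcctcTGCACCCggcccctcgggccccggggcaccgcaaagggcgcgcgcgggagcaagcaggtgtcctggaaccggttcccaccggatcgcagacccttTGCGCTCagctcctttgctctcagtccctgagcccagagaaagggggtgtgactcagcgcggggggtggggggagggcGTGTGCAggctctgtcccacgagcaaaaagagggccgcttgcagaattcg
Slc30a1 (chr1:191906531-191906766): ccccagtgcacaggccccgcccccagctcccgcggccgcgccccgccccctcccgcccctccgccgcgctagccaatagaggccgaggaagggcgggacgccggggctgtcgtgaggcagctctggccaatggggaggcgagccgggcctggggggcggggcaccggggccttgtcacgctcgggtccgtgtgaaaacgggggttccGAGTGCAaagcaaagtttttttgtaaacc
Counted over the whole window of 300 bases, Mt2 held 4 matches, Mt1 held 3, Slc30a1 held 2 and Mtf1 held 0. At least 4 matches were found in 0.517% of 32851 promoters searched in the same way, at least 3 in 1.97% and at least 2 in 7.11%. Of the Slc39a8 promoters listed, 1 held 1 match and 1 held 0. The element of the glucocorticoid receptor, searched as AGAACA and TGTTCT with 3 bases between, was in no window of these 5 genes and in 0.00913% of all promoters. The antioxidant response element, searched as TGAC and GC with 3 bases between, was in 1 window each of Mt2, Slc30a1 and Slc39a8 and in 12.4% of all promoters. A match is a run of letters and does not show that a factor was bound in these GCs.

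Mt1 (ENSMUSG00000031765, chr8:94179082-94180327) and Mt2 (ENSMUSG00000031762, chr8:94172664-94173568) lie next to each other on the plus strand. Mtf1 (ENSMUSG00000028890) lies at chr4:124802104-124849800, Slc30a1 (ENSMUSG00000037434) at chr1:191906767-191913247, Slc39a14 (ENSMUSG00000022094) at chr14:70303469-70351425 and Slc39a8 (ENSMUSG00000053897) at chr3:135825279-135888572, all in GRCm38. All 6 are protein-coding genes. The 3′ end of Mtf1 shares 316 nt with 1110065P20Rik on the other strand, so its reads can be told from those of that gene only if strand was used in counting, which is not given in the sources used here. Gm45774 overlaps Mt2, 1700034H15Rik overlaps Slc30a1 and 4933401H06Rik overlaps Slc39a8 on the other strand, while no gene overlaps Mt1 or Slc39a14. On the same strand, Gm43429 and Gm43428 overlap Slc39a8 and n-R5s192 overlaps Mtf1, and strand does not tell these apart.

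Between 5446576 and 8257041 reads per mouse were counted on genes, 48.9 to 58.4% of the reads in each file. Levels are given as CPM, reads of a gene per 1000000 reads counted on genes with TMM scaling over all 20 libraries. The libraries were made with a 3′ kit that gives 1 tag per transcript, so CPM was not divided by gene length. All 9 GC markers, among them Foxl2, Fshr and Inha, were detected in each group, and their summed level lay between 5817 and 15215 CPM. The median correlation of each library with its own group was between 0.828 and 0.878, lowest in FL1 in diestrus replicate 1. No limit was set below which a library would count as apart.

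In estrus, FL1 mice had the highest levels of both Mt1 and Mt2 among the 4 groups. Mt1 was there at about 2.01 times and Mt2 at about 2.65 times the mean level of ctrl mice in estrus, while the ranges of the lines overlapped in diestrus. In FL1 mice the mean of Mt2 was 5.74 times higher in estrus than in diestrus and that of Mt1 2.27 times higher.

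In ctrl mice in estrus, the Mt1 level was 404, 493, 477, 480 and 555 CPM. In FL1 mice in estrus it was 826, 1397, 810.3, 922 and 893 CPM. All 5 FL1 mice thus lay above all 5 ctrl mice, as 1.85% of the 13007 genes tested did, and no reading is drawn from this because the contrast was used to pick the gene. The group means were 482 ± 53.4 and 970 ± 244 CPM (SD, n = 5 each), which gave 1.01 as log2 fold change (SE 0.19). Without FL1 replicate 2, whose Mt1 level was farthest from its group, the log2 fold change was 0.84.

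Mt1 in diestrus was 262, 334, 551, 401 and 446 CPM in ctrl mice. In FL1 mice in diestrus it was 665, 324, 363, 438 and 343 CPM. The ranges overlapped, with 1 FL1 mouse above all ctrl mice, and the means were 399 ± 110.04 and 426 ± 140.0 CPM (SD, n = 5 each). The log2 fold change between the lines was 0.10 (SE 0.24) and took values from -0.11 to 0.25 when 1 mouse was left out. From estrus to diestrus the log2 fold change of Mt1 was -0.28 in ctrl mice (SE 0.20), where the ranges overlapped, and -1.19 in FL1 mice (SE 0.24), where all 5 mice in diestrus lay below all 5 in estrus. In FL1 mice 1.32% of the 13114 genes tested were lower in diestrus with no overlap. The order of the Mt1 means was FL1 in estrus, ctrl in estrus, FL1 in diestrus and ctrl in diestrus, and neighbours among the last 3 overlapped in their ranges.

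Mt2 varied more. In estrus the Mt2 level was 345, 370.5, 246, 254 and 265 CPM in ctrl mice, and 666, 1136, 687, 826 and 604 CPM in FL1 mice. The means were 296 ± 57.5 and 784 ± 213 CPM (SD, n = 5 each), all 5 FL1 mice lay above all ctrl mice, and the log2 fold change was 1.40 (SE 0.21). Without FL1 replicate 2, again the highest mouse, it was 1.23.

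In diestrus, Mt2 was at 75.5, 145, 251, 170.1 and 101.9 CPM in ctrl mice and at 214, 110.5, 100.6, 159 and 98.9 CPM in FL1 mice. The ranges of both lines overlapped, the means were 149 ± 67.9 and 137 ± 49.7 CPM (SD, n = 5 each) and the log2 fold change was -0.11 (SE 0.30), with -0.34 to 0.16 when 1 mouse was left out. For Mt2 the change from estrus to diestrus on the log2 scale was -0.999 in ctrl mice (SE 0.27), with 4 of 5 mice in diestrus below all mice in estrus, and -2.53 in FL1 mice (SE 0.26), with no overlap. The order of the Mt2 means was FL1 in estrus, ctrl in estrus, ctrl in diestrus and FL1 in diestrus, with overlap between the 2nd and the following one by a single mouse on each side, and with wide overlap between the last ones. The line effect in estrus and the stage effect in FL1 mice share the 5 FL1 mice in estrus, so they are not independent of each other.

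**Figure D1:**
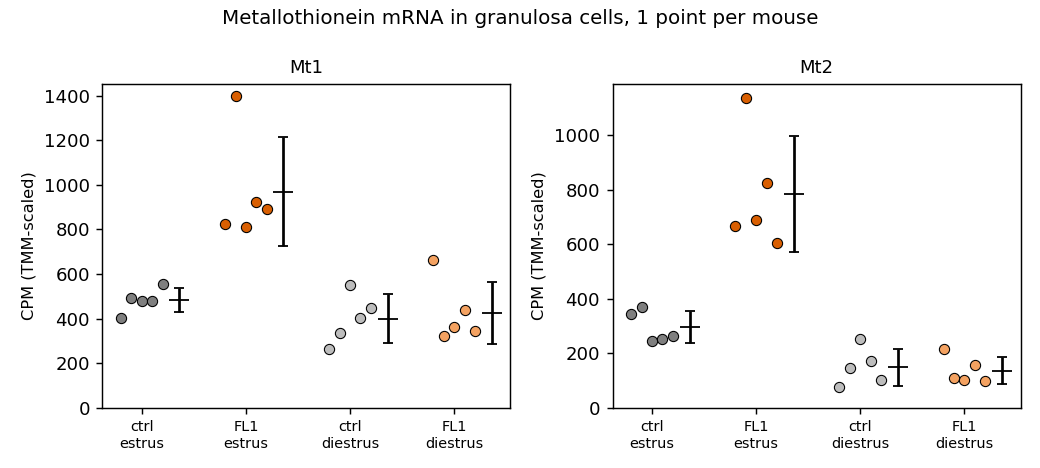
Mt1 (left) and Mt2 (right) mRNA in GCs, in CPM on a linear axis that starts at 0, 1 point per mouse, with the mean and SD of the 5 mice beside each group. The FL1 mice in estrus lie above all other groups, between 810.3 and 1397 CPM for Mt1 and between 604 and 1136 CPM for Mt2.

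The difference between the line effects of both stages was -0.91 for Mt1 (SE 0.31) and -1.53 for Mt2 (SE 0.38) on the log2 scale, diestrus minus estrus. Over all genes, 0 of 14938 passed the test of this difference in edgeR (0%), 0 in DESeq2 and 0 in limma-voom, and 710 (4.75%) had an unadjusted p under 0.05 in edgeR. Whether the line effect on Mt1 and Mt2 depends on the stage is not tested by their own values, since these were the reason for the choice.

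Markers of luteal cells differed in the same direction as Mt1 and Mt2 between the lines in estrus and between the stages of FL1 mice. The summed level of 5 luteal markers was 272 to 1490 CPM in ctrl mice in estrus and 3830 to 7993 CPM in FL1 mice in estrus. In diestrus it was 380.4 to 929 CPM in ctrl mice and 868 to 3607 CPM in FL1 mice, and no luteal marker was at 0 in any group. Of the 5 markers, 3 passed the edgeR test as higher in FL1 mice in estrus, where 0.415% of all genes did so, and DESeq2 and limma-voom called 4 each (2.67% and 0.815% of all genes in either direction). By edgeR these were Akr1c18, which inactivates progesterone (log2 fold change 4.02), the LH receptor Lhcgr (3.02) and Star, which brings cholesterol to steroid synthesis (2.10). Star was also higher in FL1 mice in diestrus (2.25), where 0.0931% of all genes were, a stage in which the ranges of Mt1 and Mt2 overlapped between the lines. In that stage 5 of 5 luteal markers had a higher fitted level in FL1 mice, with a median log2 fold change of 1.64. Of them, 4 had an unadjusted p under 0.05 in edgeR (5.56% of all genes). DESeq2 called Ptgfr and Star there (0.72%), and limma-voom called Star (0.217%). Between the stages of FL1 mice, 5 of 5 luteal markers had a lower fitted level in diestrus, with a median log2 fold change of -1.24 beside 0.01 for all genes tested. EdgeR called 0 of these 5, with 3 at an unadjusted p under 0.05 (9.48% of all genes), DESeq2 called Star (1.72%) and limma-voom called Akr1c18 and Cyp11a1, the enzyme that opens steroid synthesis (0.991%). In ctrl mice the median between the stages was -0.24, with a higher fitted level in diestrus for 2 of 5. EdgeR (1.36% of all genes) and limma-voom (1.6%) called 0 of 5 there, and DESeq2 called Star (3.39%). At an unadjusted p under 0.05 in edgeR there were 3 of 5 (11.8% of all genes), as many as in FL1 mice. Levels summed over 5 markers of macrophages and leukocytes were 10.2 to 34.4 CPM in ctrl and 29.7 to 80.1 CPM in FL1 mice in estrus, and 3.27 to 10.0 CPM and 8.59 to 62.2 CPM in diestrus, respectively. EdgeR called 0 of 3 tested markers of this list in estrus and 0 of 2 in diestrus, with 1 and 2 at an unadjusted p under 0.05 (10.7% and 5.56% of all genes). DESeq2, which has a filter of its own, called Cd68 and Lyz2 in estrus, where it called 2.67% of all genes, and Lyz2 in diestrus (0.72%). Limma-voom called Lyz2 in estrus (0.815% of all genes) and 0 in diestrus (0.217%). Of other markers, the median sums in estrus in ctrl and FL1 mice were 1253 and 1500 CPM for theca and stroma. They were 398 and 557 CPM for erythrocytes and 130 and 304 CPM for oocyte markers. In diestrus these sums were 522 and 815, 281 and 769, and 120 and 334 CPM in this order. EdgeR called 0 of these between the lines (0.769% and 0.248% of all genes). At an unadjusted p under 0.05 were 1, 1 and 1 in estrus (10.7%) and 1, 3 and 0 in diestrus (5.56%). The part of these cells in the levels of Mt1 and Mt2 was not tested. In such bulk samples a change in the number of cells of a type and a change of RNA per cell cannot be told apart.

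The ratio of Mt1 to Mt2 reads within a library does not depend on scaling. Both genes share each stage contrast with the rule that picked them, so the ratio is given without a test. It was 1.17, 1.33, 1.94, 1.89 and 2.10 in ctrl mice in estrus and 1.24, 1.23, 1.18, 1.12 and 1.48 in FL1 mice in estrus. In diestrus it was 3.48, 2.29, 2.20, 2.36 and 4.38 in ctrl mice and 3.10, 2.93, 3.61, 2.76 and 3.47 in FL1 mice. Mt1 had more reads than Mt2 in all 20 mice, and the ratio was higher in diestrus than in estrus in both lines without overlap. In mean log2 ratio the stages differed by 0.78 in ctrl mice (SE 0.26) and by 1.35 in FL1 mice (SE 0.10). Between the lines the ratio differed by -0.40 in estrus (SE 0.18) and by 0.16 in diestrus (SE 0.21), FL1 minus ctrl, and the ranges overlapped in both stages. In both lines the diestrus mean of Mt2 was thus a smaller share of its estrus mean than that of Mt1.

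**Figure D2:**
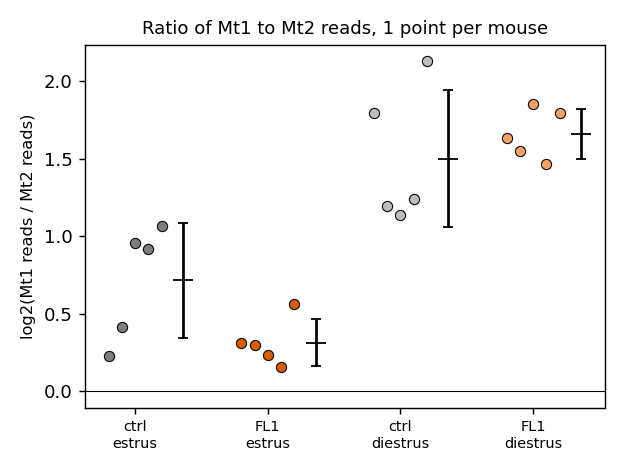
Ratio of Mt1 to Mt2 reads in each mouse on a log2 axis, where 0 stands for equal reads, with the mean and SD of the 5 mice of each group. All 10 mice in diestrus lie above all 10 mice in estrus, with 1.14 as the lowest value in diestrus and 1.07 as the highest in estrus.

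Over the mice of all 4 groups, those that were high for Mt1 within their group also tended to be high for Mt2. This was tested after subtraction of each group's mean log2 CPM, which removes the line and stage effects that the choice rested on. Over the 20 mice Pearson's r was 0.755 (p = 0.00193, permutation within groups, two-sided) and Spearman's rho was 0.602 (p = 0.0189). Adjusted over the 15 pairs of the 6 genes, the permutation p was 0.0289 for r and 0.283 for rho, so the relation passed the correction by Pearson's r alone. Without the 2 mice farthest from the median of Mt1, r was 0.645. Leaving out each mouse in turn gave r from 0.684 to 0.836. By group the signs of the deviations were only counted, and whether the groups differ in this was not tested. The deviations of both genes had the same sign in 5 of 5 FL1 mice in diestrus, 4 of 5 FL1 mice in estrus and 3 of 5 ctrl mice in diestrus, but in 2 of 5 ctrl mice in estrus. There replicate 1 was at -0.25 for Mt1 and 0.24 for Mt2 and replicate 5 at 0.21 and -0.14 in log2 CPM. Replicates 3 and 4 of this group lay close to the group mean for Mt1 (-0.0062 and 0.00099), so their signs carry little weight. With 5 mice, no r is given within a group.

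**Figure D3:**
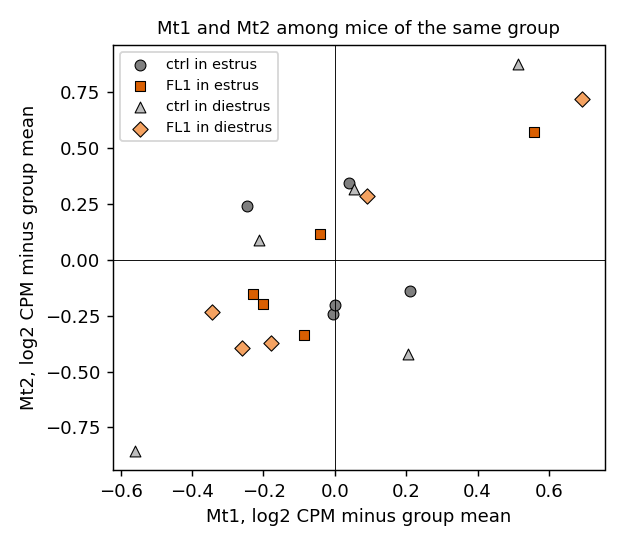
Deviation of Mt2 from its group mean against that of Mt1, both in log2 CPM, 1 point per mouse, with symbols for the 4 groups. Over all groups the points lie along a rising line (r = 0.755, 20 mice), with 3 mice of 3 groups high for both genes and 1 ctrl mouse in diestrus low for both. Of the 5 ctrl mice in estrus 2 had the same sign for both genes.

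None of the other 14 pairs passed. Their Pearson's r lay between -0.338 and 0.493, and the lowest adjusted permutation p was 0.548. Mtf1, whose protein acts on both metallothionein genes, had r of -0.234 with Mt1 and -0.185 with Mt2, and Slc30a1, which shares this regulator, had r of 0.261 and 0.0043.

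Of all genes that passed the filter over the 20 libraries, 14936 were compared with the mean log2 CPM of Mt1 and Mt2 as a description. Over all 20 mice the most similar patterns were those of Glul, glutamine synthetase (r = 0.869), Avpi1 (0.861), Fkbp1a, a binding protein of the drug FK506 (0.860), Cdc42ep4 (0.857) and Nars, asparaginyl-tRNA synthetase (0.853). The level of Glul was 165 to 1084 CPM in FL1 mice in estrus and 57.8 to 192 CPM in ctrl mice in estrus, with 4 of 5 FL1 mice above all ctrl mice. These points share the group differences that picked Mt1 and Mt2. With the group means removed, the most similar were Eif3g, a subunit of translation initiation factor 3 (r = 0.902), As3mt, which methylates arsenic (0.792), Hes1, a target of Notch (0.778), Ethe1, a mitochondrial sulfur dioxygenase (0.769), and Gm48529 (0.760). The group means of Eif3g lay between 160.0 and 179 CPM.

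Mtf1 encodes the zinc sensor. In estrus its level was 24.6, 32.1, 31.6, 26.4 and 18.7 CPM in ctrl mice and 21.2, 50.3, 33.5, 50.8 and 44.1 CPM in FL1 mice. Among FL1 mice 4 of 5 lay above all ctrl mice and 1 lay within their range. Between the lines Mtf1 had a log2 fold change of 0.58 (SE 0.29, adjusted p = 0.502, edgeR). In diestrus Mtf1 was at 45.0, 36, 27.7, 32.5 and 37.0 CPM in ctrl mice and at 24.0, 52.5, 40.8, 39.7 and 25.9 CPM in FL1 mice, which spread to both sides of the ctrl range. The log2 fold change was 0.05 (SE 0.27, adjusted p = 1.00, edgeR) and changed sign when single mice were left out. From estrus to diestrus the fitted change of Mtf1 was 0.41 in ctrl (SE 0.27, adjusted p = 0.642) and -0.14 in FL1 mice (SE 0.30, adjusted p = 0.951, edgeR). Means of the 4 groups lay between 26.7 and 40.0 CPM, so the sensor was far weaker expressed than the metallothioneins.

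Slc30a1 encodes ZnT1, the zinc exporter of the plasma membrane and, like Mt1 and Mt2, a target of MTF1. In estrus it was at 20.5, 19.998, 31.4, 22.4 and 44.3 CPM in ctrl mice and at 43.2, 26.3, 34.1, 37.0 and 60.2 CPM in FL1 mice. The ranges overlapped and the log2 fold change was 0.53 (SE 0.31, adjusted p = 0.575, edgeR). In diestrus it was at 16.6, 32.4, 34.0, 68.7 and 53.5 CPM in ctrl mice and at 53.0, 39.9, 65.8, 47.7 and 48.8 CPM in FL1 mice, with a log2 fold change of 0.32 (SE 0.32, adjusted p = 1.00, edgeR). All FL1 mice in diestrus lay within the wide ctrl range. From estrus to diestrus the fitted change of Slc30a1 was 0.56 in ctrl mice (SE 0.36) and 0.34 in FL1 mice (SE 0.26), opposite in sign to Mt1 and Mt2, and did not pass the test in either line (adjusted p = 0.640 and 0.781, edgeR).

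Slc39a14 encodes ZIP14, an importer of zinc, manganese and iron that is known from the acute-phase response of the liver. In estrus its level was 26.7, 32.1, 17.5, 12.4 and 21.6 CPM in ctrl mice and 19.0, 15.7, 7.64, 0.561 and 44.4 CPM in FL1 mice. The FL1 mice spread widely, from 4 reads in replicate 4 to 262 in replicate 5, on both sides of the ctrl range. This gave a log2 fold change of -0.34 (SE 0.63, adjusted p = 0.931, edgeR), which was -1.04 without FL1 replicate 5 and -0.0234 without FL1 replicate 4. In diestrus Slc39a14 was at 25.7, 16.3, 12, 23.1 and 18.2 CPM in ctrl mice and at 16.8, 29.3, 22.7, 35.6 and 32.9 CPM in FL1 mice, of which 3 lay above all ctrl mice. There the lines differed by 0.54 on the log2 scale (SE 0.33, adjusted p = 1.00, edgeR). Between the stages Slc39a14 had a fold change below its error in ctrl mice (-0.22, SE 0.36, adjusted p = 0.897, edgeR) and had a fold change close to its error in FL1 mice (0.64, SE 0.62, adjusted p = 0.840, edgeR). The latter was 1.34 without FL1 in estrus replicate 5 and 0.33 without replicate 4.

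Slc39a8 encodes ZIP8, a related importer of zinc and manganese. It was the member with the largest fitted difference between the lines, with lower values in FL1 mice in both stages. In estrus it was at 1.17, 5.12, 31.6, 31.4 and 23.4 CPM in ctrl mice, 2 low and 3 high. In FL1 mice in estrus it was at 5.96, 0.624, 5.77, 3.65 and 3.90 CPM, inside the range of the ctrl mice apart from replicate 2, which lay below it. The log2 fold change was -2.22 (SE 0.76, adjusted p = 0.232, edgeR), and no FL1 mouse in estrus was above 5.96 CPM. In diestrus Slc39a8 had 0, 118, 83, 77 and 32 reads in ctrl mice and 1, 20, 0, 12 and 0 reads in FL1 mice. This corresponded to 0 to 15.8 CPM in ctrl and 0 to 2.74 CPM in FL1 mice, with a log2 fold change of -3.14 (SE 1.35, adjusted p = 0.847, edgeR). Its fitted change from estrus to diestrus was -1.05 in ctrl mice (SE 0.88, adjusted p = 0.742) and -1.998 in FL1 mice (SE 1.32, adjusted p = 0.722, edgeR). With counts this low the fitted fold change depends on few reads, and the groups overlapped in both stages through 2 ctrl mice in estrus and 1 in diestrus that were as low as the FL1 mice.

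**Figure D4:**
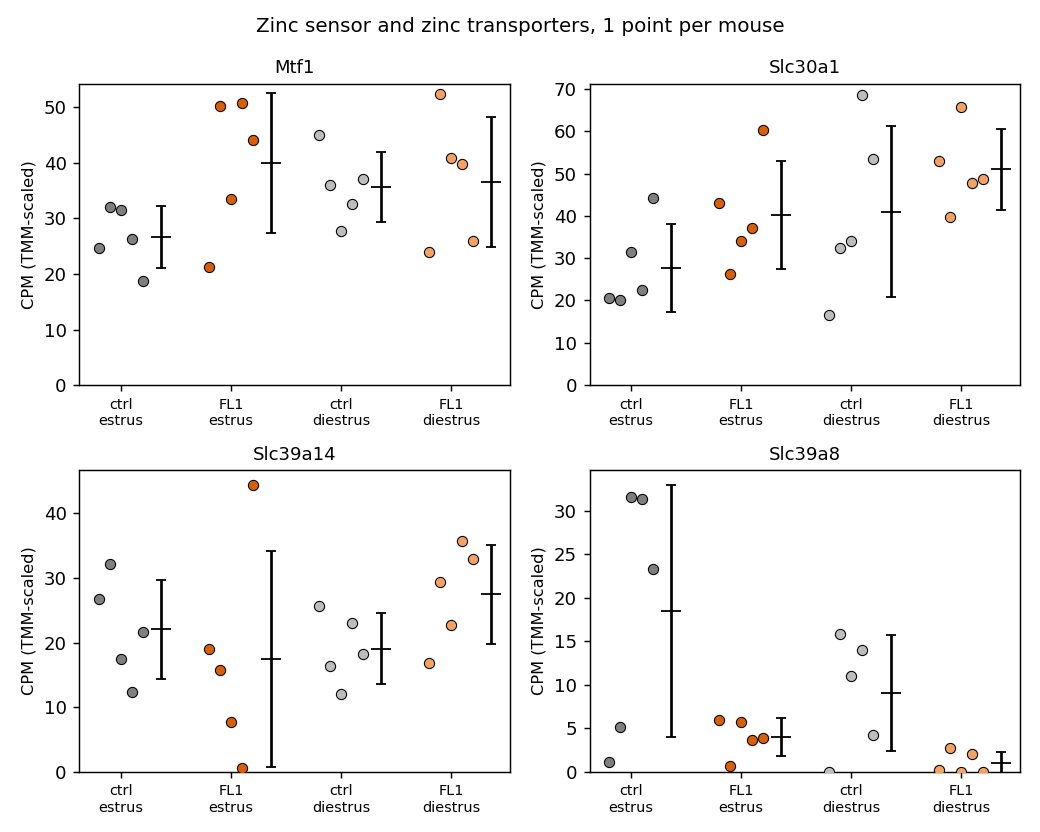
Levels of Mtf1, Slc30a1, Slc39a14 and Slc39a8 in CPM on linear axes that start at 0, 1 point per mouse, with the mean and SD of the 5 mice of each group. The groups overlap in each panel, and Slc39a8 reaches 31.6 CPM in ctrl mice and 5.96 CPM at most in FL1 mice.

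Between the lines, 0 of these 4 members passed the edgeR test in estrus, where 0.769% of 13007 genes did, and 0 of 4 in diestrus, where 0.248% of 12886 genes did. Between the stages, 0 of 4 passed in ctrl mice (1.36% of 12850 genes) and 0 of 4 in FL1 mice (0.221% of 13114 genes). At an unadjusted p under 0.05 there was 1 of 4 in estrus (10.7% of all genes tested) and 1 of 4 in diestrus (5.56%), Slc39a8 each time, and 0 of 4 for the stage effects in ctrl (11.8%) and FL1 mice (9.48%). In the interaction 0 of 4 passed (0% of 14938 genes), with 0 at an unadjusted p under 0.05 (4.75%). DESeq2 and limma-voom called 0 of 4 in each comparison as well, where they called 0 to 3.39% and 0 to 1.6% of all genes. In 4 members with 5 mice a group such a count does not show that the levels were alike.

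The wider family was taken as 4 metallothioneins, 10 exporters of the Slc30 family and 14 importers of the Slc39 family. Mt3, a metallothionein known from the brain, was at 1.88 to 29.9 CPM in the 20 mice, with log2 fold changes between -0.71 and 0.32 in the comparisons of groups and no adjusted p under 0.747 (edgeR). Mt4, known from stratified epithelia, had 9 reads in all 20 libraries together. The strongest expressed exporters were Slc30a9, whose protein moves zinc out of mitochondria, with a mean of 99.6 CPM, Slc30a4, which loads vesicles, with 95.9 CPM and Slc30a5, which loads the Golgi apparatus, with 58.3 CPM. The strongest expressed importers were Slc39a9 with 99.9 CPM, Slc39a6, known for zinc uptake into the oocyte, with 77.5 CPM and Slc39a1 with 39.8 CPM. Slc30a1 with 40.0 CPM, Slc39a14 with 21.5 CPM and Slc39a8 with 8.13 CPM were thus not the main transporters of their families in these GCs. Slc30a8, Slc30a10 and Slc39a12 had 0 reads in all libraries.

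Of the transporters of both families 17 were tested in estrus and 0 passed (edgeR, 0.769% of all genes), and 16 were tested in diestrus and 0 passed (0.248%). Between the stages 0 of 16 passed in ctrl mice (1.36%) and 0 of 17 in FL1 mice (0.221%). With such shares of all genes, 0 of 16 or 17 is no result about the transporters. DESeq2 and limma-voom called 0 as well. At an unadjusted p under 0.05 there were 1 exporter and 3 importers in estrus, where 10.7% of all genes were, and 1 exporter and 2 importers in diestrus, where 5.56% were. For the stages there were 0 exporters and 1 importer in ctrl mice (11.8% of all genes) and 0 exporters and 1 importer in FL1 mice (9.48%). In estrus the median log2 fold change was 0.21 for exporters, -0.06 for importers and 0.01 for all genes tested. In diestrus it was 0.31, 0.32 and 0.01.

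Among them, Slc39a11, which encodes the zinc importer ZIP11, had fold changes of the same sign as Mt1 and Mt2 in estrus and between the stages of FL1 mice, and is named after its values were seen. The level of Slc39a11 was 7.58 to 29.4 CPM in ctrl mice in estrus, with a median of 23.9 CPM, and 28.8 to 65.0 CPM in FL1 mice in estrus, with a median of 50.4 CPM. In diestrus it was 13.2 to 26.5 CPM in ctrl and 19.3 to 34.7 CPM in FL1 mice. The log2 fold change was 1.08 between the lines in estrus (SE 0.35, adjusted p = 0.189, edgeR) and -0.88 between the stages in FL1 mice (SE 0.29, adjusted p = 0.257, edgeR), so neither passed the test over all genes. Slc30a4 was higher in the FL1 mean in both stages (0.53 with adjusted p = 0.383 in estrus, 0.48 with adjusted p = 0.870 in diestrus, edgeR) without passing.

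**Figure D5:**
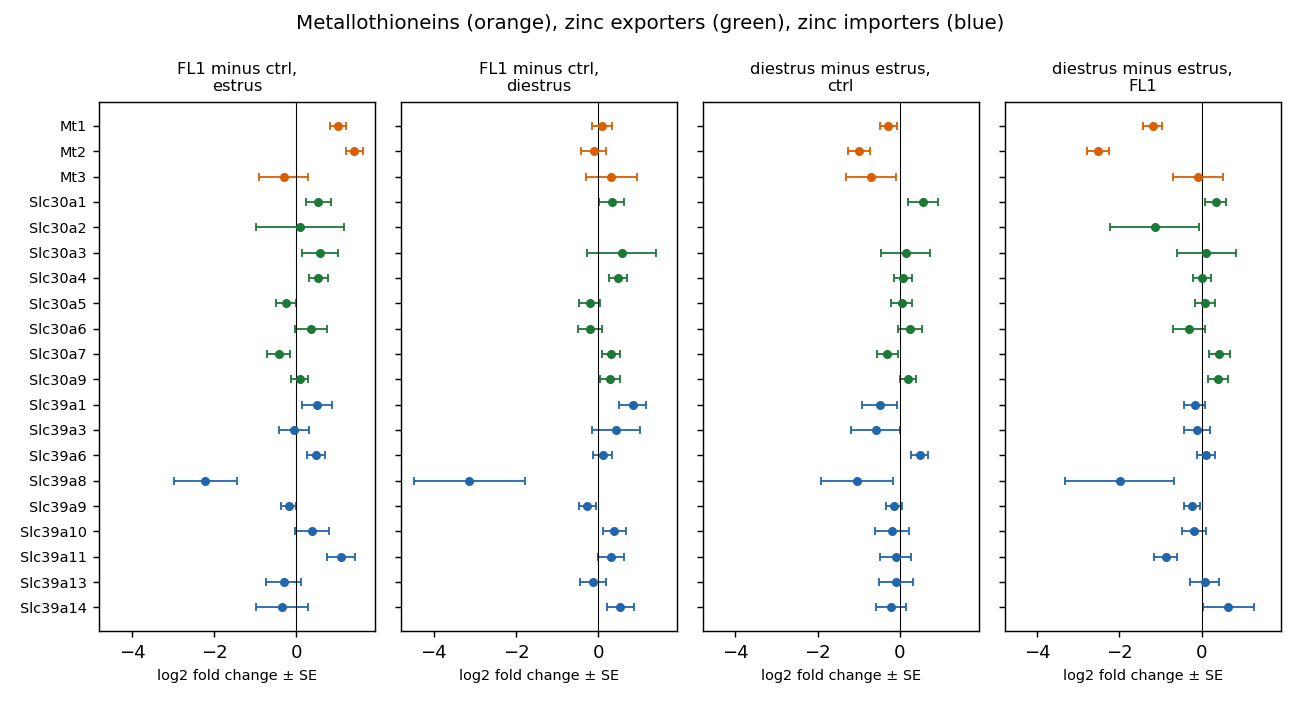
Log2 fold change with its SE (edgeR) of metallothioneins (orange), zinc exporters (green) and zinc importers (blue) that passed the filter, in the line comparisons of estrus and diestrus and the stage comparisons of ctrl and FL1 mice. Mt1 and Mt2 stand at 1.01 and 1.40 in the first panel and at -1.19 and -2.53 in the last, and no transporter in any panel passed the threshold.

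Genes that share other inputs of the metallothioneins were counted in the same way. Of 9 glucocorticoid-induced genes tested in estrus 1 was higher in FL1 mice, where 0.415% of all genes were. This was Sgk1, a kinase acting on ion transport, at 43.4 to 107.5 CPM in ctrl and 103.5 to 673 CPM in FL1 mice (log2 fold change 1.84, SE 0.42, adjusted p = 0.0462, edgeR). DESeq2 called Sgk1 too. The call was lost in limma-voom (adjusted p = 0.0782) and in 1 edgeR fit of all 20 samples (adjusted p = 0.0540). Without FL1 in estrus replicate 2 its log2 fold change was 1.17, and its adjusted p by edgeR was 0.0641 to 0.117 when any 1 of the 5 ctrl mice or of FL1 replicates 1, 2 and 5 was left out. In diestrus and between the stages edgeR called 0 of the 9, with 1 at an unadjusted p under 0.05 in diestrus (5.56% of all genes), 3 between the stages of ctrl mice (11.8%) and 2 between those of FL1 mice (9.48%). DESeq2 called 2 between the stages of ctrl mice, Fkbp5 and Tsc22d3, where it called 3.39% of all genes, and limma-voom called 0 (1.6%).

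Of the antioxidant genes of NRF2, Hmox1, which breaks down heme, fell by 1.43 on the log2 scale from estrus to diestrus in ctrl mice (SE 0.32, adjusted p = 0.0323, edgeR), where 0.576% of all genes fell. Its level was 39.2 to 99.9 CPM in ctrl mice in estrus and 16.4 to 40.4 CPM in diestrus. DESeq2 called Hmox1 too, and also Srxn1, which reduces oxidised peroxiredoxins (3.39% of all genes). The edgeR log2 fold change of Srxn1 was -1.60 (SE 0.50, adjusted p = 0.153), and 2 of the 9 genes tested had an unadjusted p under 0.05 (11.8%). The call of Hmox1 was lost in limma-voom (adjusted p = 0.0507) and, in edgeR, without ctrl in estrus replicates 2, 3 or 4 and without ctrl in diestrus replicates 1, 3, 4 or 5 (adjusted p 0.0660 to 0.109). In the other comparisons of groups edgeR, DESeq2 and limma-voom called 0 genes of this list, with 1, 2 and 2 at an unadjusted p under 0.05 in edgeR for the lines in estrus (10.7% of all genes), the lines in diestrus (5.56%) and the stages in FL1 mice (9.48%). Of 9 copper-handling genes tested, edgeR called 0 in each comparison of groups, where it called 0.221 to 1.36% of all genes. At an unadjusted p under 0.05 there were 2 for the lines in estrus (10.7%), 1 in diestrus (5.56%) and 1 each for the stages in ctrl (11.8%) and FL1 mice (9.48%). DESeq2 called the copper pump Atp7a in estrus (2.67% of all genes) and Cp, ceruloplasmin, between the stages of ctrl mice (3.39%), and limma-voom called 0. Of the genes of the IL-6 and STAT3 response, 6 to 8 were tested and all 3 tools called 0 in each comparison of groups, with 2, 0, 1 and 1 at an unadjusted p under 0.05 in edgeR, beside 10.7%, 5.56%, 11.8% and 9.48% of all genes.

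The genes next to Mt1 and Mt2 were also counted. Within 500 kb of the start of Mt1 lie 34 other genes, of which 12 passed the filter in estrus, 13 in diestrus, 11 for the stages of ctrl mice and 16 for those of FL1 mice. EdgeR and limma-voom called 0 of them in each of these comparisons, with 1, 0, 1 and 1 at an unadjusted p under 0.05 in edgeR (10.7%, 5.56%, 11.8% and 9.48% of all genes). DESeq2, which has a filter of its own, called 1 of the 34 genes between the stages of ctrl mice (3.39% of all genes), Nlrc5, which had not passed the filter for edgeR and limma-voom there, and 0 in the other comparisons. Their median log2 fold change was -0.04 in estrus and 0.08 between the stages of FL1 mice, beside 0.01 for all genes tested in each.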

How the data were processed

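The authors deposited raw counts of reads per Ensembl gene for each of 20 samples, made from reads of a QuantSeq 3′ kit aligned with STAR to GRCm38. How many reads were multimapping (23.2 to 32.8%) is listed in the same files, and such rows were kept out of library sizes and tests. Whether strand was used in counting is not given in the sources used here. Of 55487 identifiers 55227 were in GENCODE M21.

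Groups were taken from the labels, and the 5 replicates of a group are separate mice. In R 4.3.3, edgeR 4.0.16 compared each pair of groups over all genes that passed its filter (minimum count 10, minimum total 15, minimum share 0.7), with TMM scaling, the quasi-likelihood F test and Benjamini-Hochberg adjustment at 0.05. The interaction was fitted to all 20 samples. DESeq2 1.42.0, limma 3.58.1 (voom with sample weights), RLE scaling, no filter, the replicate number as a block, all samples in 1 fit and leaving out each sample were alternatives. Correlations used log2 CPM with a prior count of 2 and 100000 permutations within groups. Copies were searched with BLAST 2.17.0 over the last 500 nt of each transcript, at 90% identity over 100 nt or more.

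The members and gene lists were chosen with earlier results of these data known. Named are the members, transporters and list genes that were called, the 3 strongest transporters of each family and the 5 genes most like Mt1 and Mt2 by each of the 2 correlations. Slc39a11, Atp7a, Cp, Fkbp5, Tsc22d3, Srxn1, Nlrc5 and the cell type markers stand outside this rule and were picked with their values in view. A planned permutation test of the Mt1 to Mt2 ratio is not given, because the ratio compares the groups that picked both genes. The adjustment over 15 pairs and the leave-one-out of similar genes were added after seeing the data. The scripts were tested on simulated data. Intervals of depth were not needed, since the mouse is the unit of replication.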

Additional observations from a re-analysis of the deposited data

Results flagged for a closer look

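Of 28 groups of 5 values checked for a single value far from the others, 1 stood out, where chance flags about 1 in 20. This was the Mt1 level of 1397 CPM in FL1 in estrus replicate 2, while the other 4 FL1 mice in estrus lay between 810.3 and 922 CPM. The same mouse was also highest for Mt2, with 1136 CPM, and for its group its Mt1 to Mt2 ratio of 1.23 was the median. Without it the log2 fold change of FL1 over ctrl in estrus was 0.84 for Mt1 and 1.23 for Mt2, and between the stages in FL1 mice it was -1.03 and -2.37.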

How the results depend on the processing

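None of 178 recomputed log2 fold changes of Mt1 and Mt2 and none of 56 recomputed levels moved by 1 SD or more. The other members were called in 0 of 356 refits (lowest adjusted p 0.0733, Slc39a8 in estrus without a filter). The sign of Mtf1 changed between the stages of FL1 mice under limma-voom (0.0162) and between the lines in diestrus on leaving out 1 mouse (-0.12 to 0.16), and that of Slc30a1 in the interaction likewise (-0.45 to 0.0419). Few reads limit Slc39a8.

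The share of tested genes that was called moved most. For the lines in estrus and diestrus it was 0.769% and 0.248%, 2.67% and 0.720% in DESeq2, and 1.55% and 0.439% without a filter. For the stages of ctrl and FL1 mice it was 1.36% and 0.221%, 3.39% and 1.72% in DESeq2, and 1.45% and 1.23% without a filter. For FL1 mice 1 fit of all 20 samples gave 0.435% and limma-voom 0.991%. The interaction had 0.0223% without a filter. Leaving out 1 mouse gave 0.490 to 0.966% (estrus), 0.158 to 0.237% (diestrus), 0.583 to 1.31% (ctrl stages) and 0.0958 to 1.31% (FL1 stages), the last without FL1 in diestrus replicate 1. The causes were not tested.

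The replicate numbers count different mice, and deviations of samples with the same number correlated at -0.166 to 0.117, so they share only a number. With this number as a block, 0.446% of genes passed for the lines in estrus and 0.101% in diestrus, and Sgk1 in estrus was not called (adjusted p = 0.155, edgeR).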
